A study of Rattus norvegicus with 30 samples.

Results

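Livers that had lost 90% of their mass (PH90) were compared with livers that had lost 70% (PH70), 24 hours after the operation. The comparison used the 6 arrays labelled as 90% partial hepatectomy and the 6 labelled as 70%, which are 12 of the 30 arrays of the study, and the 18166 genes that were represented by probe sets with exactly 1 gene symbol. All 30 rats were wild-type Wistar rats, and each gave 1 liver sample to 1 Affymetrix Rat Gene 2.0 ST array. The other groups, each of 6 rats, had lost 30% of the liver (PH30), were sham-operated or were not operated on, and they served here to place the PH90 and PH70 values. The labels read here give no age, sex or lobe. The title of the study asks how expression in the remnant changes with the size of the resection.

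Partial hepatectomy is the classic model of liver regeneration: the lobes that are left grow until the liver has regained its mass, and most of the new cells come from hepatocytes that leave the resting state, copy their DNA and divide. Removal of about 70% of a rodent liver is the usual operation and is followed by a near-synchronous wave of division. Removal of about 90% leaves a remnant that may be too small to carry the liver's duties of clearing bile acids and ammonia, making glucose and plasma proteins and metabolising drugs, and many animals do not survive it.

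The deposited values were taken as log2 values, since the submitters' processing notes name RMA, which gives log2; the table itself states no log base, and every fold change below rests on it. In the values each probe set is centred on its median over the 30 arrays. A value of 0 is therefore a gene's own median and says nothing about abundance, and the label "liver" could not be checked by the level of hepatocyte markers. Differences below are PH90 minus PH70 in log2 units with the moderated standard error (SE), and adjusted p values are limma's after Benjamini-Hochberg adjustment over all 18166 genes. Genes with an adjusted p under 0.05 are the called ones. Unless sham is named, "rose" and "fell" mean called higher and lower in PH90 than in PH70, and not a change against sham. In whole tissue, fewer cells of a type and less RNA per cell cannot be told apart.

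Of the 18166 genes 4454 (24.5%) were called, 2558 (14.1%) higher and 1896 (10.4%) lower in PH90, while the median difference over all genes was 0.009. A difference of at least 1 log2 unit was reached by 578 called genes (3.18%), of which 169 (0.93%) were higher and 409 (2.25%) lower, so the larger changes lay mostly on the lower side. The PH90 and PH70 ranges did not overlap at 1914 genes (10.5%), with PH90 above at 1160 (6.39%) and below at 754 (4.15%); without rat 139, described next, the shares were 7.83% and 6.37%. One PH70 rat, number 139, stood apart: its array correlated with the other PH70 arrays at -0.114 on average, against 0.493 to 0.546 for the other 5 and 0.755 to 0.827 among the PH90 arrays, and with the sham arrays at 0.203. Without it 4442 genes were called (24.5%), 2550 higher (14%) and 1892 lower (10.4%), and 4036 of the 4454 calls were kept, all in the same direction. One PH30 rat, number 95, stood apart in the opposite way: its array correlated at -0.113 with the other PH30 arrays and at 0.498 with the PH70 arrays, and its Mki67 value was 3.104, above all PH70 rats. Whether labels were exchanged was not tested, and the labels were kept. Rat 95 enters the comparison only through the shared estimate of spread, and without both rats 4680 genes were called. The PH90 arrays were spread more widely than the PH70 arrays (SD over genes 0.363 to 0.554 against 0.215 to 0.299). Quantile normalization of the centred values, which gives all arrays 1 distribution and so narrows the first and widens the second, left 2003 calls, 1088 higher and 915 lower. List counts that it moved by over 1.5 times, and named genes that lost their call, are given with their lists as quantile-normalized. All list counts below are to be read beside the 14.1% of all genes that were higher and the 10.4% that were lower.

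Genes of mitosis were lower in PH90. Of 36 measured genes for chromosome segregation, the spindle and entry into mitosis, 35 fell and none rose, where 10.4% of all genes fell, and their median difference was -1.61. Many such genes carry a short promoter element, the cell cycle genes homology region (CHR, TTTGAA on either strand), to which the DREAM and MuvB-FOXM1 complexes bind to repress and then activate them late in the cell cycle. The letters were found in 22 of the 30 mitosis promoters that RefSeq (GRCr8) gave (73.3%) and in 15.9% of 14564 promoters of tested genes, over 250 bases before and 50 after the start. The stretch from 120 bases before to 50 after the start is shown for 4 called members. They had the largest falls among those that hold the letters in this stretch. Members with no promoter given or without the letters there were passed over, Ccnb1 among them. The CHR letters (TTTGAA, or TTCAAA where they lie on the opposite strand) are in capitals.
Mki67, chr1:199952544-199952713, minus strand: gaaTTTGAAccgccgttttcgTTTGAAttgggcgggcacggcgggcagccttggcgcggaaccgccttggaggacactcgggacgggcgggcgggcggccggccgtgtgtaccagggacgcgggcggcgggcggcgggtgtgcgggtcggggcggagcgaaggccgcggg
Top2a, chr10:84473044-84473213, minus strand: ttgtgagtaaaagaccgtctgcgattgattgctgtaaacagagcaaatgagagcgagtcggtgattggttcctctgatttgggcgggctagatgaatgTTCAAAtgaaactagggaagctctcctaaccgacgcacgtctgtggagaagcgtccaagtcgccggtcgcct
Cdc20, chr5:137255750-137255919, minus strand: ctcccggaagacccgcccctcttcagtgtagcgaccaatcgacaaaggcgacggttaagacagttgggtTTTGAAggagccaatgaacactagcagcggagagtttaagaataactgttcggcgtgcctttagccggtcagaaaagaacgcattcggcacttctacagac
Plk1, chr1:186147538-186147707, plus strand: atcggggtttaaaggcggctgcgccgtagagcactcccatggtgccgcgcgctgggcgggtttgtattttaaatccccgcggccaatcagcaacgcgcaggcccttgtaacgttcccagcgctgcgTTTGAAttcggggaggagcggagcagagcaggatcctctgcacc
A match of letters is a description of the promoter and does not show that a factor was bound.

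Mki67, the proliferation marker that coats mitotic chromosomes, ran from -1.99 to 0.78 in the PH90 rats (median -0.37) and from -0.26 to 3.003 in the PH70 rats (median 2.62). The lowest PH70 value was that of rat 139, and the other 5, at 2.00 or above, all lay above every PH90 rat. The difference was -2.65 (SE 0.52, adjusted p = 0.00024), or 6.29-fold lower in PH90. Top2a, the topoisomerase that untangles sister chromatids, ran from -1.30 to 0.71 against -0.11 to 3.30 (difference -2.63, SE 0.52, adjusted p = 0.00025). Cdc20, an activator of the anaphase-promoting complex, ran from -0.74 to 0.20 in PH90 and from -0.56 to 2.99 in PH70 (difference -2.25, SE 0.43, adjusted p = 0.0002). In both genes rat 139 gave the lowest PH70 value and the other 5 PH70 rats stood above all PH90 rats. Cyclin B1 (Ccnb1), the regulatory partner of Cdk1 at entry into mitosis, fell by 2.20, its kinase Cdk1 by 1.88, the mitotic kinase Plk1 by 2.11 and cyclin A2 (Ccna2) by 2.10. Foxm1, the transcription factor of the late cell cycle, ran from -0.18 to 0.77 in PH90 and from -0.14 to 2.38 in PH70 (difference -1.51, SE 0.35, adjusted p = 0.0014). The smallest fall in the list was that of Cenpa, the histone variant of centromeres (-0.66, SE 0.17, adjusted p = 0.0046). The 1 member that was not called was Cdc25c, with a difference of 0.19 (SE 0.21, adjusted p = 0.61) and medians of 0.78 in PH90 and 0.79 in PH70.

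Averaged over the 36 mitosis genes, the PH90 rats lay between -0.518 and 0.399 and the PH70 rats between -0.185 and 2.253. Rat 139 had the value -0.185, inside the PH90 range, while the other 5 PH70 rats lay between 1.201 and 2.253. Without it 35 genes still fell, the median difference was -1.99, and the ranges of 33 of the 36 genes did not overlap, against 1 of 36 with it (6.37% of all genes without it and 4.15% with it). Against sham, which both comparisons share, 35 of the 36 genes were called higher in PH70 (median 2.15; 10.5% of all genes were called higher there) and 3 in PH90 (median 0.47; 19.9% of all genes). The sham rats lay between -0.616 and -0.43 on the same average and the unoperated rats between -0.084 and 0.16, so the PH90 rats overlapped both control groups.

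**Figure D1:**
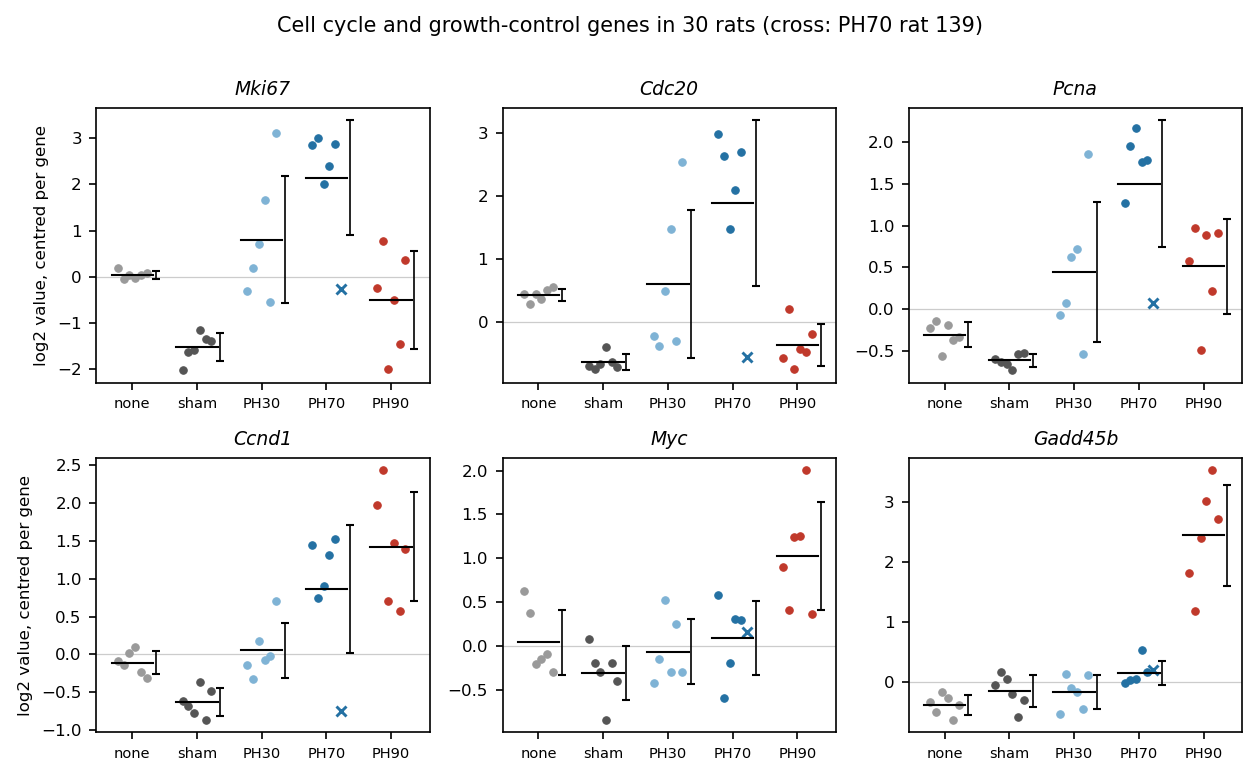
Centred log2 values of 6 genes in each of the 30 rats, by group (none: no operation). Points are rats, horizontal lines group means, bars the SD of 6 rats, and the cross is PH70 rat 139. For Mki67, Cdc20 and Pcna the PH70 rats other than 139 lie above all PH90 rats, while for Gadd45b all PH90 rats lie above all PH70 rats.

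Genes of DNA replication were also lower in PH90, but by less. Of 37 measured genes 18 fell and none rose (median -0.50). Without rat 139 it was 28 (median -0.65), and the ranges of 19 of the 37 genes then did not overlap. Rrm2, the subunit of ribonucleotide reductase that supplies deoxynucleotides in S phase, ran from -1.78 to 0.89 in PH90 and from -0.05 to 3.99 in PH70, where rat 139 again gave the lowest value and the next was 2.98. The difference was -3.17 (SE 0.59, adjusted p = 0.00015), 8.97-fold lower in PH90. Mcm6, a subunit of the replicative helicase, ran from -0.24 to 1.71 in PH90 and from 0.01 to 2.44 in PH70 (difference -1.11, SE 0.35, adjusted p = 0.019). Pcna, the sliding clamp of DNA polymerase, ran from -0.50 to 0.97 and from 0.08 to 2.17 (difference -0.99, SE 0.31, adjusted p = 0.017). The count rested on single rats in both directions: it was 9 without PH70 rat 59, 9 without PH90 rat 61, 10 without PH90 rat 106 and 8 in a fit of the 12 PH90 and PH70 arrays alone. Mcm6 and Pcna lost their calls without rat 59 (adjusted p = 0.052 for both), without rat 61 (0.068 and 0.063) and in the 12 arrays alone (0.099 and 0.058), and Mcm6 also without rat 106 (0.065). In contrast to the mitosis genes, 28 of the 37 replication genes were called higher in PH90 than in sham (median 0.67), and 35 in PH70 (median 1.11); Pcna stood 1.13 above sham in PH90 (adjusted p = 0.0042) and 2.12 above it in PH70 (adjusted p = 1.7e-05). E2F letters (TTTCGCGC, TTTGGCGC or TTTCCCGC, either strand) were found in 14 of 32 promoters of the list (43.8%) and in 2.6% of all promoters. Quantile-normalized, 9 of the 37 fell, and Mcm6 and Pcna were not called.

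Genes that act before DNA synthesis were higher more often than lower. Of 21 cyclins, E2F factors and immediate early genes 8 rose and 2 fell (median 0.38), and 9 rose and 4 fell without rat 139 (median 0.28). Myc, which drives growth and ribosome production, ran from 0.37 to 2.00 in PH90 (median 1.07) and from -0.60 to 0.58 in PH70 (median 0.23), and the ranges overlapped (difference 0.94, SE 0.23, adjusted p = 0.0029). The AP-1 members Jun (difference 0.67, adjusted p = 0.0011), Jund (0.65, adjusted p = 0.0017), Fosl1 (0.69, adjusted p = 0.0059) and Fos (0.47, adjusted p = 0.0012) and the stress factor Atf3 (0.69, adjusted p = 0.00086) rose. Fosl1 rested in part on PH90 rat 106, at 1.83 where another PH90 rat was at -0.003: without it the difference was 0.45 (adjusted p = 0.012), and in the 12 arrays alone its call was lost (adjusted p = 0.085). Cyclin D1 (Ccnd1), which carries hepatocytes past the G1 restriction point, ran from 0.57 to 2.43 in PH90 and from -0.75 to 1.52 in PH70 and was not called (difference 0.56, SE 0.29, adjusted p = 0.18; without rat 139 0.24, adjusted p = 0.55). Its values against sham were 2.06 in PH90 (adjusted p = 9.6e-07) and 1.50 in PH70 (adjusted p = 0.00035). E2f1, an S-phase transcription factor, fell (difference -0.66, SE 0.17, adjusted p = 0.0032). Of the 21 genes 3 rose and 2 fell when quantile-normalized, and Myc, Jun, Jund and Fos lost their calls.

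Among 20 p53 targets and cell cycle inhibitors 5 rose and 3 fell (median 0.13), where 14.1% of all genes rose and 10.4% fell. Gadd45b, a growth arrest and stress gene that is induced in regenerating liver, ran from 1.17 to 3.52 in PH90 and from -0.02 to 0.52 in PH70, with no overlap (difference 2.29, SE 0.23, adjusted p = 1.4e-08). Plk3, a stress-induced kinase, ran from 0.90 to 1.84 against -0.17 to 0.66, again with no overlap (difference 0.99, SE 0.14, adjusted p = 1.9e-06). The cyclin-dependent kinase inhibitor p21 (Cdkn1a) ran from 0.90 to 1.73 in PH90 and from -0.14 to 1.33 in PH70 and was not called (difference 0.44, SE 0.31, adjusted p = 0.36; without rat 139 0.26, adjusted p = 0.66), although it stood above sham in both (1.67, adjusted p = 5.4e-05, and 1.23, adjusted p = 0.0043). Cdkn2c, the inhibitor p18, fell with the mitosis genes (difference -1.48, SE 0.31, adjusted p = 0.00057), and rat 139 gave its lowest PH70 value (-0.33, against 1.18 or more in the other 5). When quantile-normalized 2 rose and 2 fell.

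Transcripts for the protein-making machinery were higher in PH90. Of 34 ribosome biogenesis genes, which transcribe and process ribosomal RNA in the nucleolus, 30 rose and 1 fell (median 0.51), where 14.1% of all genes rose. At 16 of the 34 all PH90 rats lay above all PH70 rats, as at 6.39% of all genes. Nop2, an RNA methyltransferase of the large subunit, ran from 0.45 to 1.51 in PH90 and from -0.32 to 0.16 in PH70 (difference 0.88, SE 0.17, adjusted p = 0.00017). Wdr12 ran from 0.44 to 1.36 against -0.05 to 0.25 (difference 0.78, SE 0.11, adjusted p = 3e-06), and nucleolin (Ncl) from 0.69 to 1.29 against 0.06 to 0.39 (difference 0.63, SE 0.10, adjusted p = 2.2e-05). None of the 3 overlapped. The exception was Ubtf, an activator of RNA polymerase I, which fell (difference -0.23, SE 0.07, adjusted p = 0.015). Quantile-normalized, 9 of the 34 rose and nucleolin was not called.

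Among 19 aminoacyl-tRNA synthetases, the enzymes that load amino acids on transfer RNA, 12 rose and 2 fell (median 0.39), and 15 rose and 1 fell without rat 139. Gars1 (glycine) ran from 0.49 to 1.08 in PH90 and from -0.26 to 0.03 in PH70 (difference 0.88, SE 0.11, adjusted p = 2.7e-07) and Hars1 (histidine) from 0.69 to 1.38 against -0.21 to 0.41 (difference 0.85, SE 0.12, adjusted p = 2.7e-06). Neither overlapped. Aars1 (alanine) ran the other way, from -0.38 to 0.27 against 0.14 to 0.36 (difference -0.33, SE 0.08, adjusted p = 0.0029). The amino acid response element, to which ATF4 binds when amino acids are short (TGATGNAA on either strand), was found in 7 of 17 promoters of this list (41.2%) and in 3.0% of all promoters. It is shown in capitals in Nars1 (asparagine; difference 0.58) and in Iars1 (isoleucine; difference 0.55), where it lies on the opposite strand. These were the 2 called members of largest difference with the letters from 120 bases before to 50 after the start. Members with no promoter given or without the letters there were passed over, Gars1 and Hars1 among them. A match of letters does not show that ATF4 was bound.
Nars1, GRCr8 chr18:60275733-60275902, minus strand: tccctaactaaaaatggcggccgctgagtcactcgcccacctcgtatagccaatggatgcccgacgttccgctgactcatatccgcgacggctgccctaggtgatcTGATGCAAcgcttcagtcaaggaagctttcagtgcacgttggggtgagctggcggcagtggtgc
Iars1, GRCr8 chr17:15193603-15193772, minus strand: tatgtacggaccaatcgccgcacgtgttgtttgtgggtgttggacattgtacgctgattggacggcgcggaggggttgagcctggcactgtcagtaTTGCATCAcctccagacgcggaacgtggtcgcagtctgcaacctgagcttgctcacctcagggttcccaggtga

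Of 27 genes of the integrated stress response, the ATF4 program, 10 rose and 1 fell (median 0.23; 6 rose in the 12 arrays alone), and 6 of 26 promoters held the element (23.1%). Slc3a2, the heavy chain of several amino acid exchangers, ran from 1.49 to 2.16 in PH90 and from 0.01 to 0.64 in PH70 (difference 1.55, SE 0.15, adjusted p = 3.2e-09). Asparagine synthetase (Asns) rose by 0.78 (SE 0.20, adjusted p = 0.0036), with overlap, and the pseudokinase Trib3 by 0.69 (SE 0.15, adjusted p = 0.00058), without. Atf5, a transcription factor of the same response, fell (from -1.99 to -0.62 in PH90 and from -0.34 to 0.70 in PH70; difference -1.52, SE 0.24, adjusted p = 1.3e-05). Of 28 amino acid carriers 13 rose and 4 fell, led by the cationic amino acid carrier Slc7a2 (from 0.85 to 1.42 against -0.58 to -0.22; difference 1.60, SE 0.17, adjusted p = 2.3e-08). In PH90 9 carriers were called above sham and 4 below it (19.9% and 14.7% of all genes). In PH70 it was 2 and 7 (10.5% and 8.15% of all genes). The carrier medians against sham were 0.07 in PH90 and -0.07 in PH70. When quantile-normalized, 8 of the 19 synthetases rose and 1 fell, 4 of the 27 stress response genes rose and none fell, with no call of Trib3 and Atf5, and 7 of the 28 carriers rose and 2 fell.

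Polyamines and nucleotides are needed in quantity by growing cells, and 13 of 24 genes listed for their metabolism rose while 1 fell (median 0.40). Ornithine decarboxylase (Odc1), the first step of polyamine synthesis, ran from 1.18 to 1.86 in PH90 and from 0.21 to 0.99 in PH70 with no overlap (difference 0.96, SE 0.17, adjusted p = 0.0001). Ctps1, which makes CTP, rose by 0.88 (SE 0.16, adjusted p = 0.00013) and Cad, which starts pyrimidine synthesis, by 0.64 (SE 0.12, adjusted p = 0.0001). The 2 members with the largest rises break polyamines down: spermidine/spermine acetyltransferase Sat1 (difference 1.54, SE 0.30, adjusted p = 0.00021) and the polyamine oxidase Paox (difference 1.33, SE 0.10, adjusted p = 2e-11). Sat1 varied widely, from -0.29 to 2.79 in PH90 and from -0.58 to 0.10 in PH70, with overlap. For Paox all PH90 rats lay above all PH70 rats. Quantile-normalized, 3 of the 24 rose and 1 fell, and Ctps1 and Cad lost their calls.

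**Figure D2:**
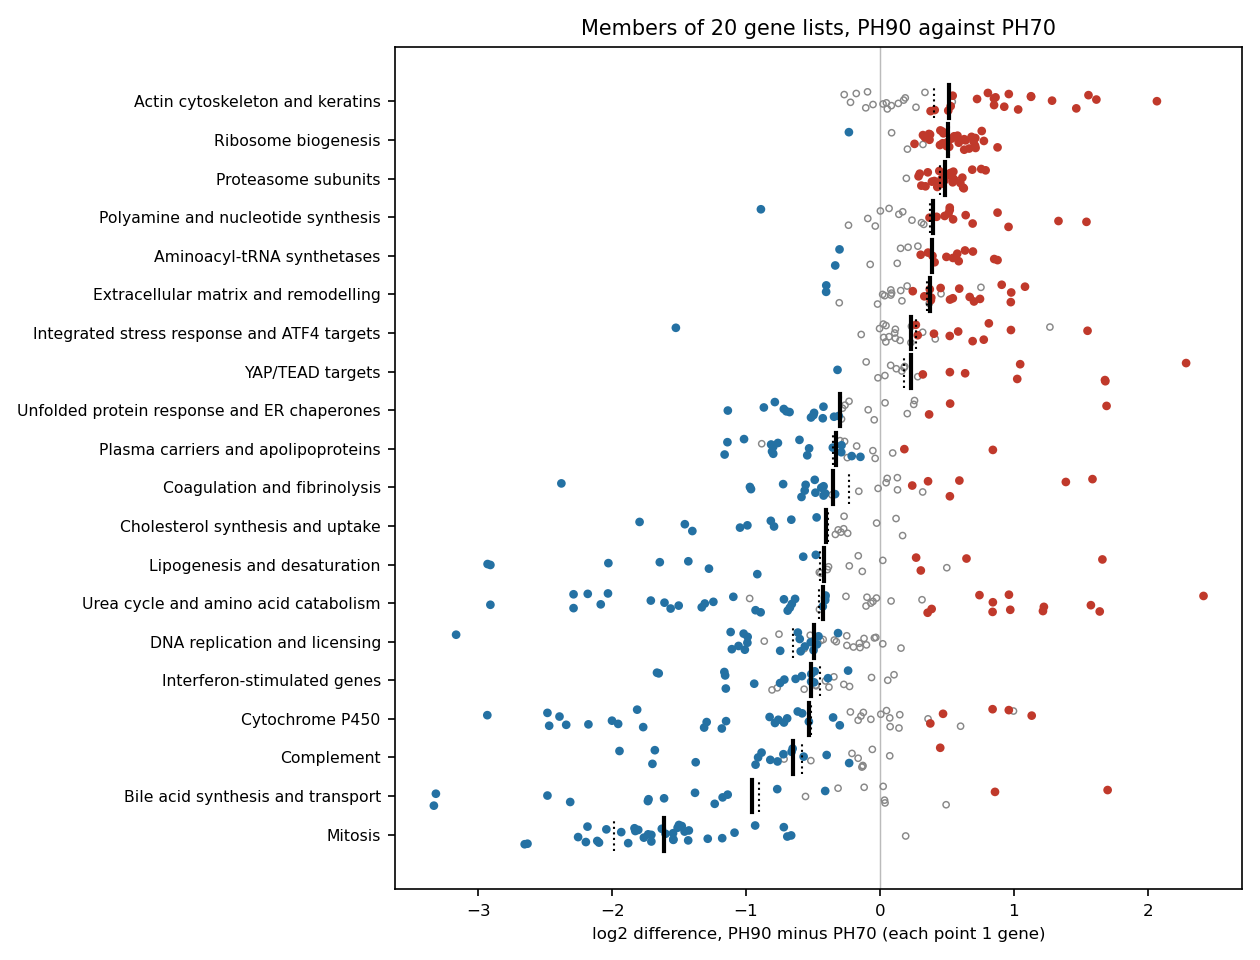
Log2 differences, PH90 minus PH70, of the measured members of 20 gene lists, 1 point per gene. Filled red points were called higher, filled blue points lower and open points not called; solid bars are list medians and dotted bars medians without PH70 rat 139. Mitosis (median -1.61) and bile acid genes (median -0.95) lie farthest to the left, and ribosome biogenesis, proteasome and cytoskeleton genes to the right.

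Transcripts of the proteasome, which degrades tagged proteins, were higher in PH90. Of 30 subunits 29 rose (median 0.48), and at 24 of them all PH90 rats lay above all PH70 rats. Psmd12, a lid subunit, ran from 0.71 to 0.99 in PH90 and from -0.03 to 0.14 in PH70 (difference 0.79, SE 0.08, adjusted p = 2.3e-08), and the deubiquitinase Psmd14 from 0.80 to 1.41 against 0.17 to 0.41 (difference 0.76, SE 0.13, adjusted p = 4.2e-05). The 1 subunit not called was Psmc3 (difference 0.20, SE 0.15, adjusted p = 0.42; without rat 139 0.03). The inducible catalytic subunits, which replace constitutive ones under interferon, went the opposite way. Psmb8 ran from -2.02 to -0.81 in PH90 and from -0.10 to 0.43 in PH70 (difference -1.67, SE 0.18, adjusted p = 3.7e-08). Psmb9 ran from -1.27 to -0.39 against -0.05 to 0.58 (difference -1.16, SE 0.15, adjusted p = 7.9e-07), and Psmb10 from -0.77 to 0.01 against 0.28 to 0.53 (difference -0.85, SE 0.11, adjusted p = 5.4e-07). In these 3 genes no PH90 rat reached the lowest PH70 rat. The count of subunits that rose was 12 of 30 when quantile-normalized.

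**Figure D3:**
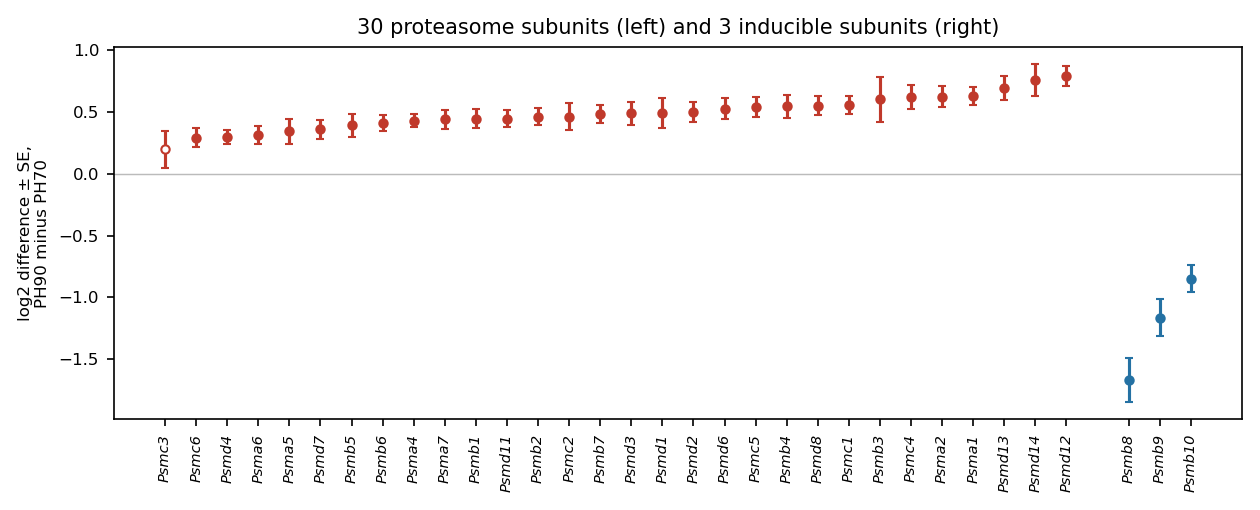
Log2 differences with SE, PH90 minus PH70, of 30 proteasome subunits, ordered by size, and of 3 inducible subunits at the right. Filled points were called and the open point, Psmc3, was not; the 29 called subunits lie above 0 and the inducible subunits below it.

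Folding factors of the endoplasmic reticulum were more often lower than higher in PH90 against PH70. Of 26 genes of the unfolded protein response 13 fell and 3 rose (median -0.30). Against sham, 5 of them were called higher and 8 lower in PH90 (median 0.05), and 8 higher and 1 lower in PH70 (median 0.11). The shares of all genes higher and lower than sham were 19.9% and 14.7% in PH90 and 10.5% and 8.15% in PH70. Sdf2l1, a cofactor of the chaperone BiP, ran from -1.61 to 0.05 in PH90 and from -0.33 to 1.26 in PH70 (difference -1.14, SE 0.23, adjusted p = 0.00034), and the chaperone Hyou1 from -0.46 to 0.21 against 0.26 to 1.12 (difference -0.70, SE 0.14, adjusted p = 0.00037). BiP itself (Hspa5) was not called (difference -0.04, SE 0.12, adjusted p = 0.88). Edem1, which hands misfolded glycoproteins to degradation, stood out in the other direction (from 0.63 to 2.24 against -0.64 to 0.27; difference 1.69, SE 0.20, adjusted p = 2.1e-07). The letters CCACG, the ATF6 part of the ER stress element, were found in 20 of 21 promoters of the list (95.2%) and in 38.7% of all promoters. Of 19 cytosolic chaperones 5 rose and 4 fell: Dnaja1 fell (difference -0.73, SE 0.12, adjusted p = 1.5e-05) while Hspa4 rose (difference 0.53, SE 0.09, adjusted p = 5.2e-05). The letters of a heat shock element, searched on either strand, were found in 6 of 17 of their promoters (35.3%) and in 0.6% of all. Quantile-normalized, 1 of the 19 cytosolic chaperones rose and 4 fell.

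Of 26 hypoxia-responsive genes 8 rose and 1 fell, with a median of 0.10, and 2 fell without rat 139. Aldolase A (Aldoa) ran from 1.30 to 1.60 in PH90 and from -0.13 to 0.33 in PH70 (difference 1.39, SE 0.09, adjusted p = 1.6e-12), and the glucose carrier Slc2a1 rose by 0.83 (SE 0.15, adjusted p = 0.00013), with overlap. Vegfa, the hypoxia-induced angiogenic factor, was not called (difference -0.03, SE 0.11, adjusted p = 0.91). The hypoxia response element (ACGTG or GCGTG, either strand, which can share letters with CCACG) was found in 14 of 21 promoters (66.7%) and in 50.8% of all. Of 22 genes of the NRF2 antioxidant response 4 rose and 7 fell (median -0.07), and 4 fell without PH70 rat 37 or in the 12 arrays alone. Of the hypoxia genes 5 rose and 1 fell when quantile-normalized, and of the NRF2 genes 2 rose and 2 fell.

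Genes of bile acid synthesis and uptake were lower in PH90. Of 22 genes 13 fell and 2 rose, and the median of -0.95 was the lowest among the metabolic lists. Cyp7a1, the rate-limiting enzyme of bile acid synthesis, ran from -4.49 to -1.66 in PH90 (median -2.93) and from -0.43 to 1.76 in PH70 (median 0.14), a difference of -3.33 (SE 0.49, adjusted p = 4.5e-06) or 10.1-fold lower. The uptake carriers of the hepatocyte's blood side fell with it. Slco1b2 ran from -5.32 to -2.01 against -0.43 to 0.00 (difference -3.32, SE 0.32, adjusted p = 5.5e-09), and the sodium-bile acid cotransporter Slc10a1 from -3.81 to -2.47 against -0.93 to 0.09 (difference -2.48, SE 0.17, adjusted p = 4.8e-12). In all 3 genes every PH90 rat lay below every PH70 rat. Cyp7a1 differed from sham by -3.40 in PH90 (adjusted p = 1.3e-06) and by -0.07 in PH70 (adjusted p = 0.95). The bile acid receptor FXR (Nr1h4) ran from -2.58 to -0.41 against -0.31 to 0.42 (difference -1.18, SE 0.24, adjusted p = 0.00034). The 2 genes that rose are efflux pumps: Abcb4, the phospholipid flippase of the canalicular membrane, ran from 1.15 to 2.25 in PH90 and from -0.51 to 0.30 in PH70 (difference 1.70, SE 0.16, adjusted p = 4.9e-09), and Abcc3, which exports bile acids to the blood, rose by 0.86 (SE 0.18, adjusted p = 0.00069). Cyp8b1, which sets the share of cholic acid, was not called (difference 0.49, SE 0.35, adjusted p = 0.38).

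The largest falls over all genes were those of Rgn, Sult1c3 and Car3. Rgn (regucalcin, or SMP30, a calcium-binding gluconolactonase) ran from -6.04 to -4.78 in PH90 and from -0.96 to 0.10 in PH70, a difference of -4.92 (SE 0.16, adjusted p = 1.6e-19) or 30.3-fold lower. The sulfotransferase Sult1c3 ran from -5.77 to -4.86 against -1.02 to 0.24 (difference -4.47, SE 0.15, adjusted p = 4.7e-19), and carbonic anhydrase 3 (Car3) from -5.89 to -3.61 against -1.18 to 0.03 (difference -4.25, SE 0.23, adjusted p = 1e-13). The PH90 and PH70 ranges of the 3 genes were far apart. In PH70 Rgn, Sult1c3 and Car3 differed from sham by -0.57, -1.21 and -1.05 (adjusted p = 0.0092, 4.9e-06 and 0.0016), and in PH90 by -5.49, -5.67 and -5.29. Of all genes 8.15% were called lower than sham in PH70 and 14.7% in PH90.

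Of 43 cytochrome P450 genes and their reductase 24 fell and 5 rose (median -0.53). Cyp2c11, the male-predominant steroid hydroxylase of rat liver, ran from -3.45 to -2.08 in PH90 and from -0.70 to -0.01 in PH70 (difference -2.34, SE 0.18, adjusted p = 4.1e-11). Cyp2e1, which oxidises ethanol, ran from -2.77 to -1.85 against -0.66 to 0.27 (difference -2.001, SE 0.14, adjusted p = 9.9e-12), and Cyp3a2 from -2.97 to -2.09 against -0.38 to 0.17 (difference -2.39, SE 0.20, adjusted p = 2.5e-10). No PH90 rat overlapped a PH70 rat in these genes. The reductase that feeds them electrons, Por, rose (difference 0.84, SE 0.16, adjusted p = 0.00023). P450 genes of a subfamily can be similar in sequence, so the probes of one member may also read another. The quantile-normalized counts were 13 lower and 5 higher.

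Conjugation enzymes moved both ways. Of 29 genes 13 fell and 5 rose (median -0.20; 3 rose in the 12 arrays alone). The alpha-class glutathione transferase Gsta2 ran from -4.13 to -2.28 in PH90 and from -0.94 to 0.08 in PH70 (difference -2.79, SE 0.24, adjusted p = 5.2e-10). The mu-class Gstm3 moved the other way, from 1.65 to 4.13 in PH90 and from -0.82 to 0.85 in PH70 (difference 3.57, SE 0.33, adjusted p = 2.1e-09), or 11.9-fold higher. Gstm1, of the same class, rose by 0.70 (SE 0.10, adjusted p = 6e-06). Transferases of a class can also be similar in sequence, and values of single members carry that uncertainty. Their quantile-normalized counts were 7 lower and 3 higher.

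Genes of the urea cycle and of amino acid breakdown parted into both directions, with 12 of 47 higher and 25 lower (median -0.43). The cycle turns ammonia into urea in the order carbamoyl phosphate synthetase (Cps1), ornithine transcarbamylase (Otc), argininosuccinate synthetase (Ass1), argininosuccinate lyase (Asl) and arginase (Arg1). The mitochondrial Otc fell: it ran from -1.61 to -0.91 in PH90 and from -0.72 to 0.01 in PH70 (difference -0.89, SE 0.13, adjusted p = 3.1e-06). Nags, which makes the activator of Cps1, ran from -1.13 to -0.27 against -0.08 to 0.39 (difference -0.69, SE 0.12, adjusted p = 6.5e-05). The 3 cytosolic enzymes rose, each with no overlap. Ass1 ran from 0.35 to 0.63 in PH90 and from -0.84 to 0.01 in PH70 (difference 0.84, SE 0.13, adjusted p = 1.1e-05), Asl from 1.18 to 1.71 against -0.55 to 0.05 (difference 1.64, SE 0.17, adjusted p = 2.4e-08), and Arg1 from 1.10 to 1.45 against -0.31 to 0.27 (difference 1.22, SE 0.10, adjusted p = 9.2e-11). Cps1 rose by 0.36 (SE 0.12, adjusted p = 0.025), a call that was lost without rat 139 (0.28, adjusted p = 0.082), without PH70 rat 59 or PH90 rats 111 or 39 (adjusted p from 0.05 to 0.082) and in the 12 arrays alone (0.083). The cytosolic aspartate aminotransferase Got1, which supplies aspartate to the cycle, ran from 1.65 to 2.54 against -0.76 to 0.03 (difference 2.42, SE 0.21, adjusted p = 7.9e-10). Quantile-normalized, 11 of the 47 rose and 13 fell, and Otc and Cps1 were not called.

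Within tryptophan breakdown, the first enzyme rose and a later one fell. The first, tryptophan dioxygenase (Tdo2), ran from 0.41 to 1.50 in PH90 and from -0.91 to 0.16 in PH70 (difference 1.57, SE 0.17, adjusted p = 2.5e-08), and kynurenine monooxygenase (Kmo), farther along, from -4.61 to -2.94 against -1.39 to 0.12 (difference -2.91, SE 0.23, adjusted p = 1.4e-10). Tyrosine aminotransferase (Tat), like Tdo2 a classic glucocorticoid target, rose by 1.22 (SE 0.21, adjusted p = 5.1e-05). Of 19 glucocorticoid-responsive genes, a list that does not hold Tdo2, 8 rose and 1 fell (median 0.46, and 0.66 without rat 139). The 1 fall was not called without PH70 rats 58, 59 or 97, without PH90 rats 61 or 106 or in the 12 arrays alone. Against sham, 8 of the 19 were called higher and 5 lower in PH90 (median 0.15), and 1 higher and 5 lower in PH70 (median -0.27). The shares of all genes were 19.9% and 14.7% in PH90 and 10.5% and 8.15% in PH70. Csad, which makes the taurine precursor, fell by 2.18 (SE 0.20, adjusted p = 2.7e-09). Csad lost its call when quantile-normalized, and 3 of the 19 glucocorticoid-responsive genes then rose and none fell.

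**Figure D4:**
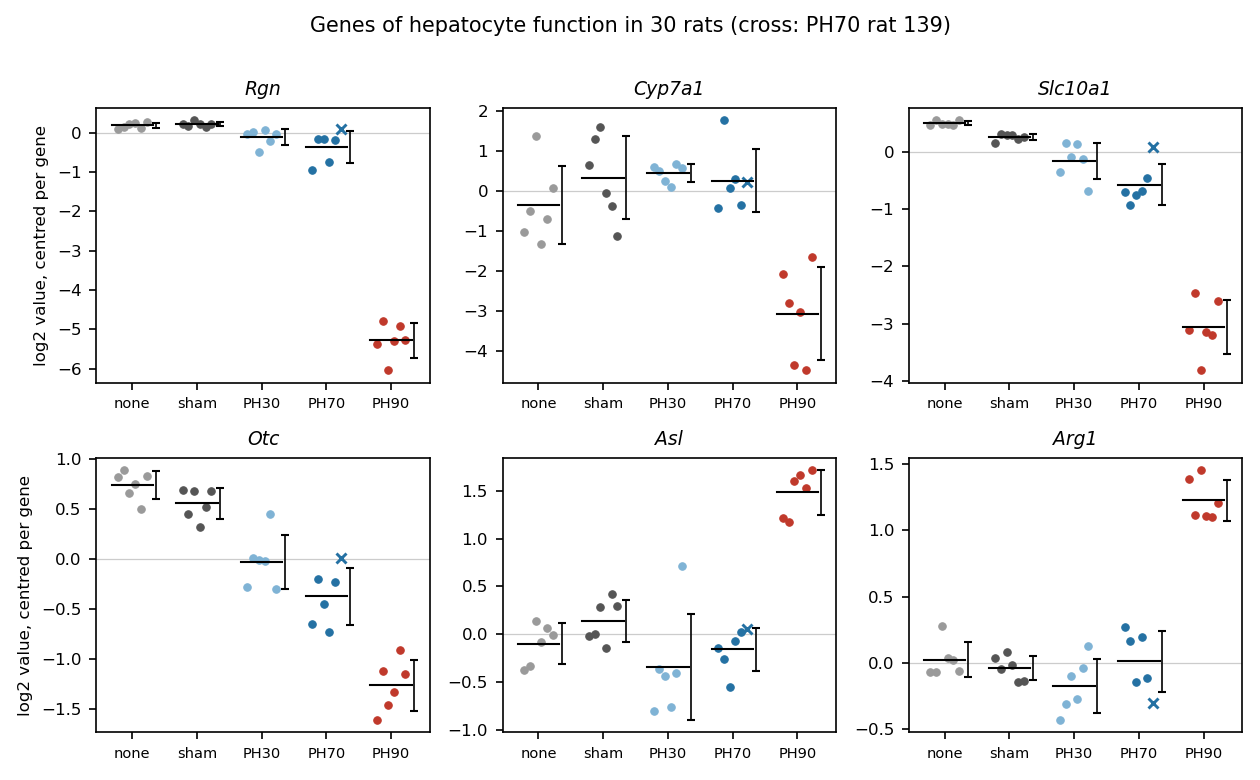
Centred log2 values of 6 genes of hepatocyte function in each of the 30 rats, by group (none: no operation). Points are rats, lines means, bars the SD of 6 rats and the cross PH70 rat 139. Rgn, Cyp7a1, Slc10a1 and Otc are lower in all PH90 rats than in any PH70 rat, and Asl and Arg1 are higher.

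Genes of lipid synthesis were lower and several of lipid droplets higher in PH90. Of 22 lipogenic genes 9 fell and 4 rose (median -0.42). The desaturases of polyunsaturated fatty acids fell most: Fads1 ran from -3.77 to -2.56 in PH90 and from -1.07 to -0.01 in PH70 (difference -2.91, SE 0.16, adjusted p = 1.1e-13), and Fads2 from -4.10 to -2.51 against -1.73 to 0.14 (difference -2.93, SE 0.24, adjusted p = 1.5e-10). Their regulator Srebf1 ran from -2.23 to -1.60 against -1.05 to 0.74 (difference -2.03, SE 0.20, adjusted p = 6.5e-09). Of 18 cholesterol genes 9 fell and none rose (median -0.40), among them the sterol isomerase Ebp (difference -1.79, SE 0.14, adjusted p = 7.1e-11). Of 19 lipid droplet and lipolysis genes 9 rose and 3 fell (median 0.23). Plin2, the main coat protein of droplets in hepatocytes, ran from 1.37 to 2.01 in PH90 and from -0.60 to 0.11 in PH70 (difference 1.74, SE 0.14, adjusted p = 9.2e-11), and the triglyceride lipase Pnpla2 from 1.27 to 2.08 against -0.44 to 0.01 (difference 1.64, SE 0.11, adjusted p = 8.6e-12). Both had no overlap. The fatty acid carrier Fabp1 fell by 1.54 (SE 0.11, adjusted p = 1.7e-11). When quantile-normalized, 2 of the lipogenic genes rose and 7 fell, and 2 of the cholesterol genes fell.

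Fatty acid oxidation did not move as a block: 6 of 25 genes rose and 8 fell (median 0.04, and 0.14 without rat 139). Acot2, a mitochondrial thioesterase, rose by 1.76 (SE 0.20, adjusted p = 1.3e-07) and Bdh1, the last enzyme of ketone body synthesis, fell by 2.44 (SE 0.23, adjusted p = 4.2e-09). Cpt1a, the gate of mitochondrial fatty acid import, was higher in PH90 than in PH70 by 0.76 (SE 0.23, adjusted p = 0.015), a call lost without PH70 rat 58 (0.56, adjusted p = 0.059). Its PH90 values, from -0.09 to 0.53, lay within the sham range of -0.30 to 0.87, and the PH70 values ran from -1.49 to 0.43. Of 16 genes of glucose and glycogen metabolism 5 fell and 2 rose. Pyruvate kinase (Pklr) ran from -3.08 to -0.83 in PH90 and from -0.59 to 0.47 in PH70 (difference -1.66, SE 0.26, adjusted p = 1e-05), and glycogen phosphorylase (Pygl) from -2.27 to -0.64 against -0.18 to 0.59 (difference -1.56, SE 0.18, adjusted p = 1.1e-07). The coactivator Ppargc1a, which switches on gluconeogenesis in fasting, ran from 0.00 to 2.06 against -0.65 to 0.24 (difference 1.43, SE 0.26, adjusted p = 0.00012), while its target Pck1 was not called (difference 0.57, SE 0.29, adjusted p = 0.18). Of 43 oxidative phosphorylation genes 9 rose and 5 fell (median 0.01), where 14.1% of all genes rose and 10.4% fell. Quantile-normalized counts were 4 higher and 4 lower for oxidation, 1 and 3 for glucose and glycogen, and 1 and 2 for oxidative phosphorylation, and Cpt1a was not called.

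Among receptors and carriers of growth signals more genes were called lower than higher. The list medians, however, lay near the 0.009 of all genes. The median was -0.04 for the growth hormone and IGF axis (0.006 without rat 139). For growth factors and receptors of regeneration it was -0.03 (-0.02 without rat 139). Of 21 genes of the growth hormone and IGF axis 7 fell and 3 rose, of which 1 was left without PH70 rats 59 or 97, without PH90 rats 43 or 87 and in the 12 arrays alone. The growth hormone receptor (Ghr) ran from -2.57 to -1.29 in PH90 and from -0.79 to 0.39 in PH70 (difference -1.62, SE 0.18, adjusted p = 7.1e-08), and Igfals, which stabilises circulating IGF, from -3.81 to -1.98 against -0.86 to 0.34 (difference -2.51, SE 0.23, adjusted p = 2e-09). Igf1 itself was not called (difference -0.15, SE 0.07, adjusted p = 0.14). Irs2, a docking protein of the insulin receptor, rose by 1.14 (SE 0.15, adjusted p = 7.5e-07). Of 34 growth factors and receptors of regeneration 10 fell and 6 rose, where 10.4% of all genes fell and 14.1% rose. The EGF receptor (Egfr) ran from -1.48 to -1.04 against -0.67 to 0.05 (difference -1.10, SE 0.12, adjusted p = 2.7e-08), and the HGF receptor (Met) from -1.27 to -0.52 against -0.51 to -0.04 (difference -0.68, SE 0.11, adjusted p = 2e-05). Hgf was not called (difference -0.04, SE 0.20, adjusted p = 0.94). Tgfb2, a ligand of the growth-inhibiting TGF-beta receptors, ran from 0.79 to 2.08 against -0.17 to 0.52 (difference 1.05, SE 0.20, adjusted p = 0.00022), and the activin subunit Inhbc fell by 1.69 (SE 0.22, adjusted p = 7.4e-07). When quantile-normalized, 1 gene of the IGF axis rose and 3 fell, 3 growth factors or receptors rose and 2 fell, and Met, Tgfb2 and Inhbc lost their calls.

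Of 25 transcription factors of hepatocytes 11 fell and 2 rose (median -0.32). Cebpa, a factor of hepatocyte differentiation, fell by 0.78 (SE 0.19, adjusted p = 0.002), whereas Hnf4a was not called (difference -0.14, SE 0.09, adjusted p = 0.32). The xenobiotic receptor PXR (Nr1i2) rose by 0.83 (SE 0.12, adjusted p = 2.3e-06). Genes that hepatocytes use near the central vein fell at 7 of 16 and rose at 1 (median -0.42; 9 fell without rat 139, median -0.54), and those used near the portal vein rose at 5 of 17 and fell at 3 (median -0.05). The central list holds Rgn, Cyp7a1 and Cyp2e1 and the portal list Ass1, Asl, Arg1 and Cps1, all described above. When quantile-normalized 5 of the 25 factors fell and 2 rose, Cebpa not among them, and of the portal list 3 rose and 2 fell.

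Secreted proteins fell unevenly. Of 25 complement genes 16 fell and 1 rose (median -0.65), led by the mannose-binding lectin Mbl1 (from -2.85 to -1.17 against -0.23 to 0.31; difference -1.95, SE 0.18, adjusted p = 3.6e-09) and the protease C1s (difference -1.70, SE 0.20, adjusted p = 1.6e-07). Of 28 coagulation genes 14 fell and 6 rose (median -0.35, and -0.23 without rat 139). Prekallikrein (Klkb1) ran from -3.32 to -2.49 against -0.93 to 0.39 (difference -2.38, SE 0.17, adjusted p = 1.5e-11). Those that rose include thrombomodulin (Thbd), an anticoagulant receptor of endothelium (from 1.31 to 2.34 against -0.14 to 0.42; difference 1.59, SE 0.12, adjusted p = 2e-11), and the plasminogen activator Plat (difference 1.39, SE 0.19, adjusted p = 2e-06). Procr, the protein C receptor, is not in the coagulation list. It ran from 2.02 to 3.47 against -0.07 to 0.79 (difference 2.39, SE 0.20, adjusted p = 2.3e-10). Of 26 plasma carriers and apolipoproteins 16 fell and 2 rose (median -0.32). Albumin (Alb) was not called (difference -0.04, SE 0.03, adjusted p = 0.51), nor was Afp (difference -0.24, SE 0.14, adjusted p = 0.25), which was called without rat 139 (-0.36, adjusted p = 0.049). Quantile-normalized, 6 coagulation genes fell and 3 rose, and 7 plasma carriers fell and 2 rose.

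The acute phase list was even, with 9 of 31 genes higher and 9 lower. Alpha-1-acid glycoprotein (Orm1) fell by 0.82 (SE 0.16, adjusted p = 0.00017), while metallothionein Mt2A (difference 1.30, SE 0.28, adjusted p = 0.00063) and the interleukin-1 antagonist Il1rn (difference 1.44, SE 0.25, adjusted p = 5.1e-05) rose. Lcn2 (difference 0.46, SE 0.46, adjusted p = 0.58), A2m (0.69, SE 0.37, adjusted p = 0.21) and the iron hormone Hamp (0.22, SE 0.21, adjusted p = 0.56) were not called, and in Lcn2 both resections stood above sham, by 2.73 in PH90 and 2.27 in PH70. Of 16 iron genes 1 rose and 4 fell; 2 rose and 3 fell without rat 139, and none rose and 2 fell in the 12 arrays alone. The receptor of oncostatin M (Osmr) ran from 1.52 to 2.77 against -0.08 to 1.34 (difference 1.58, SE 0.25, adjusted p = 1.2e-05). The quantile-normalized counts were 5 higher and 5 lower for the acute phase and none and 1 for iron.

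Interferon-stimulated genes were lower in PH90: 16 of 29 fell and none rose (median -0.51), and 12 fell without rat 139 (median -0.45). The largest fall of the list (-1.67) was that of Psmb8, given above with the proteasome. The chemokine Cxcl11 ran from -1.98 to -0.97 in PH90 and from -0.28 to 0.31 in PH70 (difference -1.65, SE 0.13, adjusted p = 1.2e-10), and the transcription factor Irf1 from -1.39 to -0.35 against 0.02 to 0.32 (difference -0.94, SE 0.13, adjusted p = 1.3e-06). Mx2 fell by 1.15 (SE 0.40, adjusted p = 0.032), a call lost without rat 139 (adjusted p = 0.097), the PH70 rat with the highest value (1.56), and without PH70 rat 58 or PH90 rats 106, 39 or 61 (adjusted p from 0.051 to 0.085). Averaged over the list, rat 139 stood at 0.459 and the other PH70 rats between -0.059 and 0.084. Of 38 cytokine genes 8 fell and 2 rose; 6 fell without rat 139, 5 without PH90 rat 39, where 4 rose, and 5 without PH90 rat 43. Cxcl12, a chemokine of stromal and endothelial cells, ran from -3.16 to -1.70 against -1.13 to 0.00 (difference -1.98, SE 0.20, adjusted p = 7.4e-09), and the alarmin Il33 from -1.82 to -1.09 against -0.58 to 0.89 (difference -1.51, SE 0.20, adjusted p = 7.9e-07). Quantile-normalized, 7 of the 29 fell, without Mx2, and of the cytokine genes 5 fell and 1 rose.

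Transcripts of the cytoskeleton were higher in PH90. Of 36 actin, keratin, annexin and S100 genes 20 rose and none fell (median 0.52, and 0.40 without rat 139). Keratin 8 (Krt8), which pairs with keratin 18 in the hepatocyte's filaments, ran from 2.42 to 3.04 in PH90 and from -0.44 to 1.43 in PH70 (difference 2.07, SE 0.20, adjusted p = 5.9e-09), and Krt18 from 1.63 to 2.32 against 0.17 to 1.19 (difference 1.28, SE 0.15, adjusted p = 1.2e-07). Both also stood above sham in PH70, by 0.93 and 1.42, and in PH90 by 2.995 and 2.70. Of 18 targets of the growth-promoting YAP/TEAD complex 8 rose and 1 fell (median 0.23). The largest rise of that list (2.29) was that of Gadd45b, given above with the p53 targets. Ccn1 ran from 1.09 to 2.51 against -0.56 to 0.72 with no overlap (difference 1.68, SE 0.26, adjusted p = 1.2e-05), Ccn2 from 0.65 to 3.41 against -0.40 to 0.68 with a narrow overlap (difference 1.68, SE 0.28, adjusted p = 2.4e-05), and Ankrd1 rose by 1.02 (SE 0.22, adjusted p = 0.00071). Of 31 matrix genes 16 rose and 2 fell (median 0.37), and 15 rose and 1 fell without rat 139. They include the basement membrane chains Lamc1 (difference 1.08, SE 0.14, adjusted p = 1.2e-06) and Col4a1 (difference 0.98, SE 0.20, adjusted p = 0.00033), while the fibrillar collagen Col1a1 was not called (difference -0.02, SE 0.17, adjusted p = 0.97). Of 17 junction genes 5 rose and 2 fell (median 0.015), where 14.1% of all genes rose and 10.4% fell. Of 27 genes of the BCL2 family and cell death 8 rose and 6 fell, and 3 fell without rat 139, without PH70 rat 59 or without PH90 rats 61 or 106, with the TWEAK receptor Tnfrsf12a at the top (from 1.48 to 3.36 against -0.23 to 0.80; difference 2.05, SE 0.23, adjusted p = 7.4e-08). When quantile-normalized, 8 of the 36 cytoskeletal genes rose, 4 YAP/TEAD targets rose and none fell, 7 matrix genes rose (Col4a1 not among them) and 1 fell, 2 junction genes rose and none fell, and 4 cell death genes rose and 1 fell.

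The largest rises were single genes of varied function. Neuropeptide Y (Npy), a peptide transmitter of sympathetic nerves, ran from 4.13 to 5.06 in PH90 and from -0.35 to 0.60 in PH70 (difference 4.64, SE 0.16, adjusted p = 3.6e-19), 25-fold higher. In PH70 it did not differ detectably from sham (0.06, adjusted p = 0.86). Faxdc2, a fatty acid hydroxylase domain protein, ran from 2.15 to 4.89 against -0.21 to 0.33 (difference 3.49, SE 0.28, adjusted p = 1.2e-10), and the intestinal cadherin Cdh17 from 2.31 to 3.06 against -1.09 to 0.40 (difference 3.15, SE 0.45, adjusted p = 3.4e-06). Gucy2c, the guanylate cyclase receptor known from gut epithelium, ran from 2.25 to 3.44 against 0.03 to 0.90 (difference 2.45, SE 0.17, adjusted p = 1.4e-11), and the receptor phosphatase Ptprz1 from 1.75 to 3.49 against -0.17 to 0.14 (difference 2.51, SE 0.16, adjusted p = 1.7e-12). No PH90 rat overlapped a PH70 rat in these 5 genes. The cold-inducible RNA-binding protein Rbm3 ran from 1.98 to 2.90 against -0.41 to 0.53 (difference 2.35, SE 0.16, adjusted p = 9e-12). Cirbp, the other classic cold-inducible gene, had a difference of 0.33 (SE 0.11, adjusted p = 0.025), a call lost without PH70 rat 97 or PH90 rats 61 or 106 (adjusted p from 0.071 to 0.099) and in the 12 arrays alone (0.079), and differed from sham by -0.54 in PH70 (adjusted p = 0.00054). Of 18 cold-inducible and circadian genes 3 rose and 4 fell (median 0.09), where 14.1% of all genes rose and 10.4% fell. With PH90 rat 43 left out, 5 rose. Of these 18 genes 3 rose and 1 fell when quantile-normalized.

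**Figure D5:**
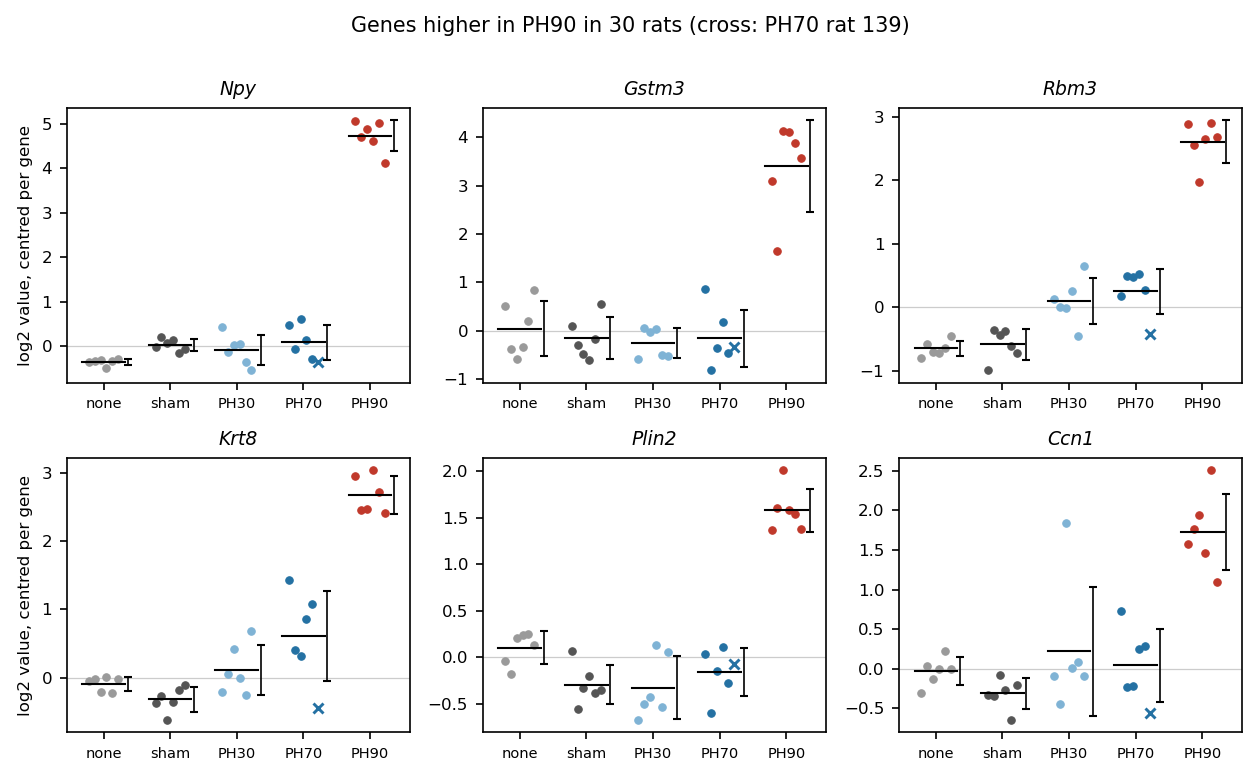
Centred log2 values of 6 genes that were higher in PH90, in each of the 30 rats by group (none: no operation). Points are rats, lines means, bars the SD of 6 rats and the cross PH70 rat 139. In each panel all PH90 rats lie above all PH70 rats, and for Npy the PH90 rats lie between 4.13 and 5.06.

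The array also carries probe sets for microRNA genes, which read the precursor transcript and not the mature microRNA. Of 363 such genes 12 were called (3.31%, against 24.5% of all genes), 7 lower and 5 higher. RefSeq lists 2 mature products for each gene; for the 3 genes with the largest falls and for Mir29c, with the largest rise, 1 is given, the arm that is usually studied, with the seed, bases 2 to 8, in capitals. No 2 of these seeds are the same.
rno-miR-122-5p: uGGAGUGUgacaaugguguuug
rno-miR-505-3p: gUCAACACuugcugguuucc
rno-miR-218a-5p: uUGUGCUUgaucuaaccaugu
rno-miR-29c-3p: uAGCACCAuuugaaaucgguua
Mir122, the dominant microRNA of hepatocytes, ran from -1.67 to -0.52 in PH90 and from -0.44 to 0.41 in PH70 with no overlap (difference -1.13, SE 0.18, adjusted p = 1.1e-05). Mir505 ran from -1.69 to -0.92 against -0.79 to -0.15 (difference -0.91, SE 0.25, adjusted p = 0.0078), and Mir218-2 from -0.79 to -0.42 against -0.30 to 0.20 (difference -0.53, SE 0.09, adjusted p = 5.2e-05). All PH90 rats lay below all PH70 rats in these genes too. Mir29c ran from -0.08 to 0.35 against -0.42 to 0.16 (difference 0.33, SE 0.09, adjusted p = 0.0077). Mir505 lost its call when quantile-normalized.

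Markers of other cell types were called in both directions, to be read beside the 14.1% of all genes that were higher and the 10.4% that were lower. The counts were 2 of 13 higher and none lower for biliary cells (list mean from -0.079 to 0.389 in PH90 and from -0.057 to 0.121 in PH70), 4 of 14 higher and 1 lower for endothelial cells (from -0.05 to 0.176 and from -0.199 to 0.045), and 2 of 16 higher and 3 lower for stellate cells and fibroblasts (from -0.231 to 0.126 and from -0.184 to 0.077). Of 20 macrophage markers 6 fell and 1 rose, or 5 and 2 without rat 139 (from -0.506 to -0.01 in PH90 and from -0.26 to 0.443 in PH70, where rat 139 was highest and the others at -0.008 or below). Of 20 T and NK cell markers 4 fell (from -0.249 to -0.146 and from -0.211 to 0.105). None of 15 neutrophil or 10 B and plasma cell markers was called, 1 of 13 red cell markers fell and 1 of 7 platelet markers fell. The single markers Lrat (stellate cells; difference -1.56, SE 0.19, adjusted p = 2.1e-07), Clec4g (sinusoidal endothelium; -0.84, SE 0.14, adjusted p = 2.8e-05), Cd5l (Kupffer cells; -0.94, SE 0.18, adjusted p = 0.00023) and Epcam (biliary cells; 0.73, SE 0.13, adjusted p = 6.8e-05) were the called members with the largest differences in their lists apart from Tagln, a contractile gene listed with stellate cells and with the cytoskeleton, which rose by 1.62 (SE 0.43, adjusted p = 0.005). Single genes need not follow their list: Clec4g was the 1 endothelial marker called lower, beside 4 called higher (list median 0.03). Differences in the biliary list ran from -0.76 to 0.754, with a median of 0.001. Of 13 hepatocyte markers 4 rose (2 in the 12 arrays alone) and 4 fell. The mean of the hepatocyte markers lay between -0.105 and 0.005 in PH90 and between -0.174 and 0.031 in PH70. The levels of all these markers are not known from centred values, so which are near 0 cannot be stated, and their part in the differences above was not tested. Quantile-normalized, 1 endothelial marker rose and none fell, 1 stellate marker rose and 1 fell, 1 macrophage marker fell and none rose, no T and NK cell or platelet marker was called, 3 hepatocyte markers rose and 2 fell, and Clec4g, Cd5l and Tagln lost their calls.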

How the data were processed

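Liver RNA of 30 rats was measured on 1-colour arrays, 1 array per rat. The authors deposited values made with RMA in Affymetrix Expression Console, per the submitters' processing notes; no version is recorded in the sources read here. That the deposited values are log2 was taken from RMA, since the table states no log base. The 29489 probe sets were each centred on their median over the arrays (within 5e-07), which no header records. Levels are therefore unknown, and the planned filter on dim probes and the trend of the prior on level could not be run. Precision is limited by the number of arrays.

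Of the probe sets 18511 had 1 gene symbol, 575 had several and 10403 none listed; 18394 of the 18511 were found in RefSeq (GRCr8) by Entrez ID. Probe sets of a gene were averaged, giving 18166 genes, of which 291 had more than 1 probe set, negatively correlated in 74. limma 3.58.1 (R 4.3.3) was fitted to all 30 arrays with 1 mean per group (25 residual and 3.713 prior degrees of freedom, two-sided). In simulated data 78% of genes changed by 0.5 and 100% of those changed by 1 were recovered, and 7.8% of the calls were false. There the genes were independent and normal, each with 1 SD in all groups, and 200 were changed. The real groups differ in spread and many more genes were called, so these rates do not measure the accuracy of the calls above. The contrasts against sham share the sham rats. No batch is given in the labels.

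The comparison, the 53 gene lists and the tests were chosen with earlier results of these data known, and lists are described by counts and medians. The rule for names took the 20 strongest rises and 20 strongest falls among called genes, at most 8 called genes per list by size of difference (or 2 if it had none), and 15 genes whatever their result, 387 in all. The text names 158, of which 26 lie outside that rule and were chosen after their values were seen: Foxm1, Cenpa, Cdc25c, Fos, Ncl, Ubtf, Aars1, Psmc3, Psmb10, Hspa5, Vegfa, Abcc3, Cyp8b1, Por, Otc, Nags, Tdo2, Cpt1a, Pck1, Met, Hnf4a, Col1a1, Mir29c, Mir122, Mir505 and Mir218-2. Promoters span 300 bases.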

Additional observations from a re-analysis of the deposited data

Results flagged for a closer look

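Single rats that stood apart from the other 5 of their group were looked for in the genes and list means of the text, with the gap to the nearest rat divided by the group's range set against Dixon's critical value for 6 samples (0.625). Of 422 tests 40 were set apart, where chance gives about 1 in 20, and 22 of the 40 were PH70 rat 139. In genes of the cell cycle this rat was low: Mki67 -0.262, Top2a -0.111, Ccna2 -0.217, Foxm1 -0.136, Rrm2 -0.05, Mcm6 0.005, Ccnd1 -0.748 and Cdkn2c -0.327, against 0.74 or more in the other PH70 rats for each gene. It was also low in Fosl1 (-0.398), Psmc3 (-0.565) and Rbm3 (-0.415), and high in Slc7a2 (-0.217), Dnaja1 (0.589), Nr1h4 (0.421) and Sult1c3 (0.241). Its list means were low for DNA replication (-0.062), the proteasome (-0.035) and oxidative phosphorylation (-0.065), and high for amino acid carriers (0.123), interferon-stimulated genes (0.459), iron handling (0.236) and macrophage markers (0.443).

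PH90 rat 61 was high in Plk3 (1.837), Gstm1 (1.174) and Plin2 (2.014) and low in Sult1c3 (-5.77), Hamp (-0.199) and Rbm3 (1.982). PH90 rat 106 was low in E2f1 (-0.262) and Lrat (-2.605) and high in the mean of cytosolic chaperones (0.563). PH90 rat 43 was high in Cxcl11 (-0.966), and PH90 rat 111 in the mean of iron handling (0.151). Among the PH70 rats, rat 37 was high in Jun (0.763) and low in Lrat (-0.54), rat 58 low in Psmb9 (-0.046) and high in Cyp7a1 (1.761), rat 59 high in Hyou1 (1.116), and rat 97 low in Cirbp (-0.592) and in the mean of conjugation enzymes (-0.441).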

How the results depend on the processing

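With quantile normalization of the deposited values run again 2003 genes were called (1088 higher, 915 lower, 54.3% higher), and 1991 of the 4454 calls were kept. The values are centred, so this step ranks deviations rather than levels and by construction removes the wider spread of the PH90 arrays. Of the mitosis list 33 genes were then called. A test against a difference of 0.3 called 1215 genes (565 higher, 650 lower, 46.5% higher), and a minimum of 1 log2 unit left 578 (169 and 409). The other settings on genes (12 arrays alone, array weights, a robust fit, array medians subtracted, 1 probe set per gene, without rats 95 and 139) gave 3768 to 4680 calls. A fit of all 29489 probe sets apart, 10403 of them with no gene listed, called 5128. That is a count of probe sets and not of genes. Leaving out each rat gave 3966 to 4525 calls, 2305 to 2584 higher and 1661 to 1941 lower. No named gene with a call changed direction under these settings. Of the 141 named genes called, 135 kept the call without any single rat; the exceptions were Pcna, Mcm6, Cps1, Cpt1a, Mx2 and Cirbp. Quantile normalization lost the call of 25 named genes, among them Myc, Jun, Fos, Pcna, Mcm6, Cps1, Otc, Csad, Cebpa and Met, and the test against 0.3 that of 26. Fosl1, Pcna, Mcm6, Cps1 and Cirbp lost it in the 12 arrays alone, and with array weights Mx2 and Cirbp lost it and Pck1 gained it (adjusted p = 0.027). No paired analysis was possible because the groups share no rat number. The filter on dim probes and the trend on level were not run, since centring removed the levels, and signal over background is unknown.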
